A study of Mus musculus with 8 samples.

Results

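The genes described here are 35 blood and lymphatic endothelial genes, taken by name from a table of 54532 annotated genes. They filled 36 rows, because Ccl21a was listed under 2 gene identifiers. The libraries were polyA RNA of the stomach corpus, the region that secretes acid and pepsinogen, from 4 control and 4 mutant mice of mixed C57BL/6 and CD1 strain that had received no treatment. All 8 carried Six2-Cre+/-, named for Six2, a transcription factor gene of mesenchymal lineages. Controls were PKAcaR wt/wt at the protein kinase A catalytic subunit gene, and mutants were PKAcaR fl/wt, with 1 floxed copy that Cre can recombine. Neither the corpus cells in which Cre acted nor the age and sex of the mice are stated in the labels, and each library holds all cells of the tissue. Mutants were compared with controls for each gene, with mutant 2 in and out.

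Endothelial cells line blood and lymphatic vessels. Blood endothelium is held together by the junction proteins Pecam1, Cdh5 and Esam, grows and survives through the VEGF receptors Kdr and Flt1 and the receptor kinases Tek and Tie1, and keeps its identity through ETS and SOX transcription factors such as Erg and Sox17. Lymphatic endothelium depends on the transcription factor Prox1 and the receptor Flt4, and at its surface it carries Lyve1 and Pdpn. At sites of inflammation endothelium displays Sele, Selp and Vcam1, which catch leukocytes, and sprouting tip cells make Apln, Angpt2 and Esm1.

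Mutant 2 stood apart from the rest. Libraries held 18184281 to 23814720 counted reads, and mutant 2 correlated with the other mutants across genes at an r of at most 0.875, against at least 0.972 among mutants 1, 3 and 4. Prkaca, the gene that the allele alters, lay at 77.1 to 86.0 CPM (counts per 1e6 reads of the TMM-scaled library) in controls and at 36.9 to 40.7 CPM in mutants. TMM scaling sets the bulk of genes equal between libraries. With plain column totals the median over all genes of the log2 fold change, mutant over control, moved from 0.07 to 0.76 with 8 libraries and from 0.02 to 0.71 without mutant 2, so the directions below are relative to the bulk of genes. Epithelial transcripts differed between the groups: the summed CPM of 4 chief cell markers lay at 298260 to 533786 in controls, 12667 to 41319 in mutants 1, 3 and 4 and 996 in mutant 2. In bulk tissue, fewer cells of a type and less RNA per cell cannot be told apart.

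Promoter stretches of 4 of the genes are shown here because they stand for the opposite patterns in the results. Emcn and Flt1 passed as lower without mutant 2, whereas Pdpn and Apln were higher in every mutant. Flt1 is the weaker case, since mutant 4 (41.57 CPM) lay above control 2 (41.44 CPM). Its call held in 3 of 7 fits that left out a further library, and with column totals its value was 0.18. Each runs 5′ to 3′ on the strand of the gene, from 220 to 21 bases before its RefSeq start (GRCm38.p6): Emcn at chr3:137340858-137341057 (+), Flt1 at chr5:147726032-147726231 (-), Pdpn at chr4:143299585-143299784 (-) and Apln at chrX:48034874-48035073 (-). None overlapped an annotated exon. Capitals mark AGGAAG, a form of the site that ETS factors such as Erg can bind, on either strand (CTTCCT on the other).
Emcn: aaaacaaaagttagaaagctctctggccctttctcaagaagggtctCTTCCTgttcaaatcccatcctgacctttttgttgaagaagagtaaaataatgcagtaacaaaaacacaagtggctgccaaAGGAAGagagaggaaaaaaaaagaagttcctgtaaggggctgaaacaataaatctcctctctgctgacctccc
Flt1: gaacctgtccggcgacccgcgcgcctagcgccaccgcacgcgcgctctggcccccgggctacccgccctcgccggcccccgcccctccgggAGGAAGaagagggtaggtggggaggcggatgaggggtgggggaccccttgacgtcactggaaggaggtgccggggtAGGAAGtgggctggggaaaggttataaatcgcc
Pdpn: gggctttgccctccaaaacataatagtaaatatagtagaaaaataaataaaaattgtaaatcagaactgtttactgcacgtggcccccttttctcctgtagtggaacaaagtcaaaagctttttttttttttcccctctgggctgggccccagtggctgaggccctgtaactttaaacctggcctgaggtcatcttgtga
Apln: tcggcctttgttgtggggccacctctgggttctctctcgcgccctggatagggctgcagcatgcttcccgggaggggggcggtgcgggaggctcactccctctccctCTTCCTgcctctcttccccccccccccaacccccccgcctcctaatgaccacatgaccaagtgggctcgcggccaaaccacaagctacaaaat
Emcn held the letters 174 and 93 bases before its start, Flt1 129 and 53 bases before, Apln 113 bases before, and the Pdpn stretch did not hold them. RefSeq promoters were found for 19 of the 35 genes, in 24 windows. The letters stood in 12 of those 24 stretches (50%), against 24.2% of 32851 such stretches of all genes. A match in letters is a description and does not show a binding site.

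With all 8 libraries, few endothelial genes passed the test. Of the 35 genes, 33 had enough reads to be tested in edgeR. Pdpn and Apln rose and Prox1 and Reln fell (edgeR quasi-likelihood test, adjusted p under 0.05), while 29 did not pass, among them 5 at an unadjusted p under 0.05. Of all 15862 genes tested, 20.2% passed, 9.39% rose and 10.8% fell, and 2 of 33 in each direction is not far from those shares. The median log2 fold change of the 33 was 0.52, against 0.07 over all genes. With column totals as library sizes, 11 of the 33 rose and none fell, beside 59.3% and 4.56% of all genes. DESeq2 called 4 higher (Pdpn, Sox7, Selp and Vcam1) and 2 lower (Prox1 and Reln), but gave many genes no adjusted p, Apln among them. It gave one to 7 of 14 core genes, 2 of 3 VEGF receptor genes and 1 of 3 angiopoietin and TIE genes. Of the transcription factor genes 2 of 4 had one, and of the apelin and tip cell genes 1 of 3. By limma-voom with sample weights, 2 rose (Pdpn and Apln) and 11 fell, beside 5691 of the same 15862 genes passing in either direction. By DESeq2, 4930 genes passed in either direction. All genes were not split into higher and lower for these 2 tools, so their counts are not read against a share.

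Without mutant 2, the picture was another one. Of the same 33 genes, 15 fell: Pecam1, Esam, Emcn, Plvap, Egfl7, Ptprb, Kdr, Flt1, Flt4, Tie1, Tek, Erg, Lyve1, Prox1 and Reln. Pdpn and Apln rose, and 16 did not pass (edgeR, adjusted p under 0.05). Over all 16124 genes tested without mutant 2, 33.5% passed, 18.3% fell and 15.2% rose. The median log2 fold change of the 33 was -0.48, against 0.02 over all genes, and 26 were negative. With column totals 2 stayed lower, Emcn and Plvap, and 10 were higher, beside 7.05% and 64.1% of all genes. DESeq2 and limma-voom each called the same 15 lower, beside 5915 and 5502 genes passing in either direction. For these tools, too, all genes were not split by direction.

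Mutant 2 was the highest of the 8 libraries for 31 of the 33 genes, a position it held for 30.6% of all genes tested. The exceptions were Prox1 and Reln. Mutants 1, 3 and 4 all lay below all 4 controls for 14 of the 33 and all above for 2, Pdpn and Apln, beside 21.7% and 19.8% of all genes tested. For 12 of the 33, mutant 2 was highest while mutants 1, 3 and 4 all lay below all 4 controls, a pattern seen for 3.44% of all genes. In mutant 2 the genes stood at a median of 5.23 times the mean of the other mutants, from 0.694 times for Reln to 21.7 times for Angpt2, against 0.967 times over all genes. The group of apelin and tip cell genes stood at a median of 10.9 times and the VEGF receptors at 2.91 times, so the excess was uneven. The CPM of the 35 genes together summed to 638 to 790 in controls, to 452 to 547 in mutants 1, 3 and 4 and to 2577 in mutant 2.

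**Figure D1:**
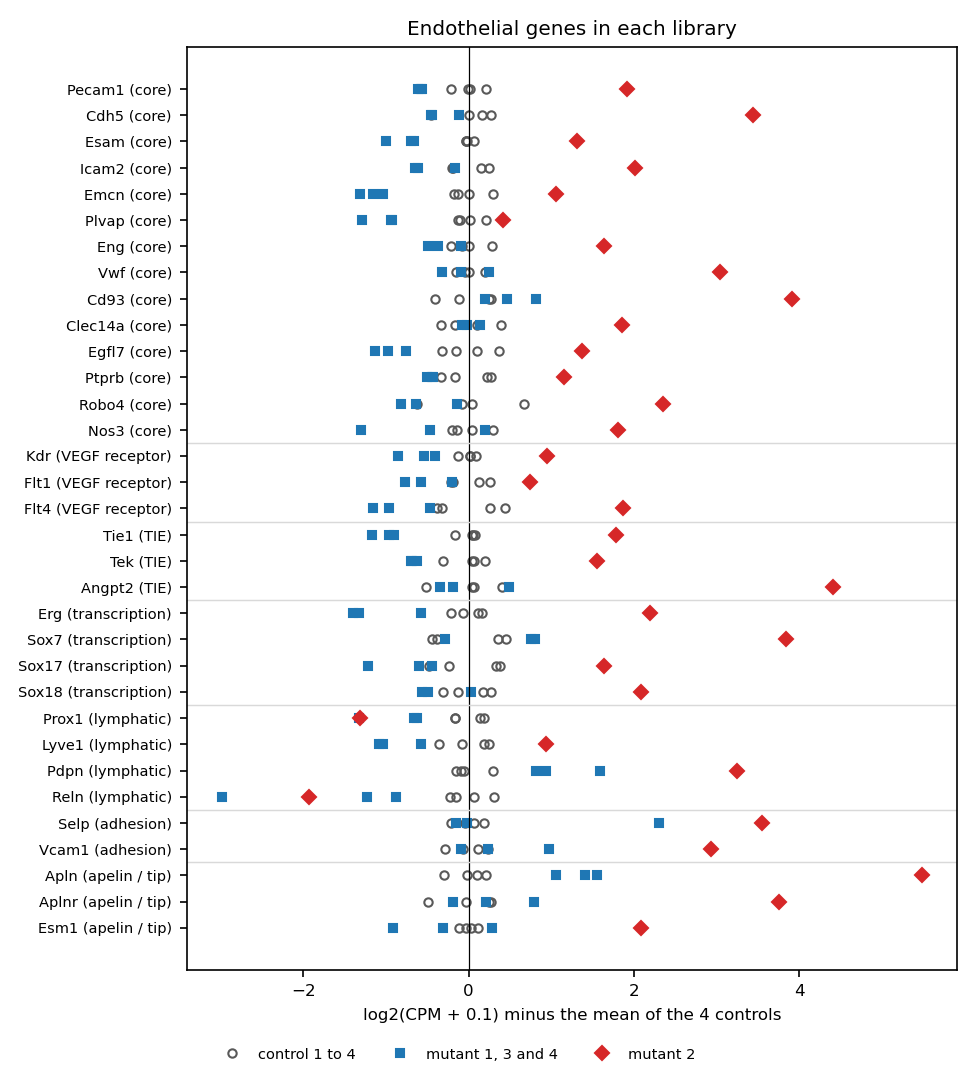
Each row is 1 endothelial gene, grouped by role, and each point 1 library, plotted as log2(CPM + 0.1) minus the mean of the 4 controls. Mutant 2 lies to the right for all genes but Prox1 and Reln, with a median of 1.86 over the genes, while mutants 1, 3 and 4 have medians of -0.49, -0.50 and -0.47. CPM are TMM-scaled, and with column totals the median fold change without mutant 2 is 0.21.

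Marker lists of other cells were summed beside these values, and they did not share 1 pattern. Fibroblast markers (7 genes) summed to 1446 to 1652 CPM in the controls, 1479 to 2246 in mutants 1, 3 and 4 and 36153 in mutant 2, where the 3 collagen genes Col1a1, Col1a2 and Col3a1 alone gave 10853, 9897 and 14167 CPM. Pericyte markers (7 genes) summed to 241 to 357 CPM in the controls, 113 to 172 in mutants 1, 3 and 4 and 666 in mutant 2 (pericytes wrap small vessels). Rgs5 made up most of that sum in controls, with 152 to 243 CPM. In the mutants it gave less than the other pericyte genes together, with 47.9 to 70.4 CPM in mutants 1, 3 and 4 and 235 in mutant 2. Pdgfrb and Abcc9 gave 144 and 123 CPM in mutant 2. Of the 7 pericyte genes, 2 (Rgs5 and Cspg4) fell without mutant 2 and 5 did not pass. Macrophage markers (8 genes) gave 150 to 193, 148 to 265 and 942 CPM, and red blood cell markers (5 genes) 36.2 to 74.2, 17.7 to 97.1 and 397 CPM, in the same order of groups. Platelet markers (6 genes, with Gp1bb at 0 in every library) gave 8.49 to 13.4, 8.05 to 10.8 and 39.4 CPM. Smooth muscle markers (6 genes) stood at 1891 to 2620 CPM in the controls, 151 to 556 in mutants 1, 3 and 4 and 260 in mutant 2. In mutants 1, 3 and 4, the fibroblast, macrophage and red blood cell sums overlapped those of controls, while in mutant 2 they were far above. The part of these cells in the endothelial values was not tested.

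**Figure D2:**
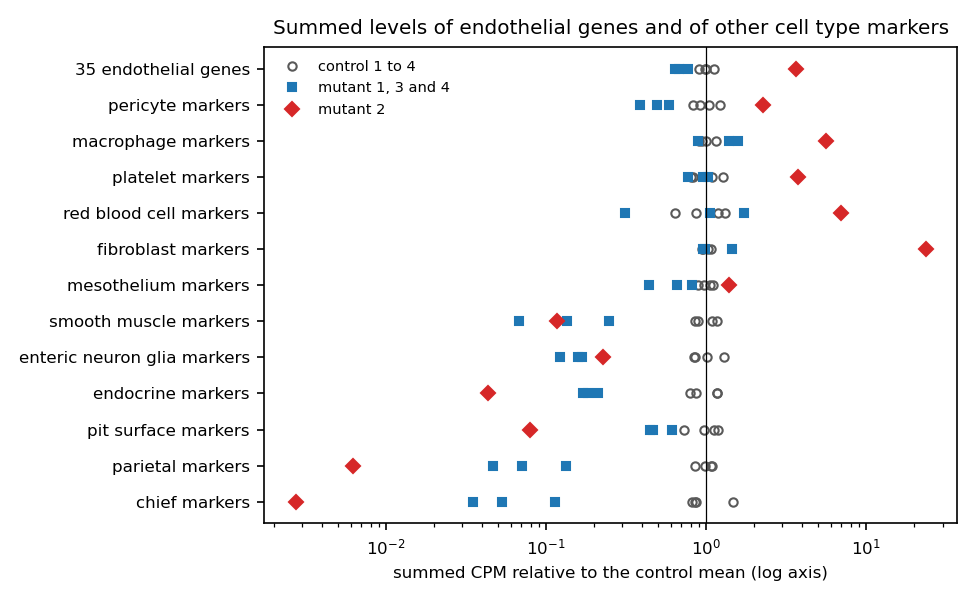
Summed CPM of each marker list, divided by its control mean, on a log axis, with 1 point per library. The endothelial sum of mutant 2 is 3.64 times the control mean and its fibroblast sum 23.5 times, while parietal and chief cell sums of all mutants lie far to the left. These are TMM-scaled values.

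Among the 14 core genes of blood endothelium, 6 fell without mutant 2 and none passed with all 8 libraries (edgeR; 1 at an unadjusted p under 0.05; by DESeq2 none of the 7 with an adjusted p, and by limma-voom 4 lower). Pecam1, the platelet and endothelial adhesion molecule (chromosome 11, 106654217 to 106750628), stood at 62.0, 52.7, 70.8 and 61.0 CPM in controls 1 to 4, at 40.2, 41.1 and 41.4 CPM in mutants 1, 3 and 4 and at 231 CPM in mutant 2. Mutants 1, 3 and 4 thus lay close together under every control, and mutant 2 lay above every other library. The log2 fold change was -0.59 (SE 0.11, edgeR adjusted p = 0.00234) without mutant 2 and 0.52 (SE 0.60, adjusted p = 0.561) with it. Cdh5, the cadherin of endothelial junctions, stood at 25.4, 18.4, 30.4 and 28.3 CPM in the controls, 18.6, 18.3 and 23.2 CPM in mutants 1, 3 and 4 and 273 CPM in mutant 2. Controls and mutants 1, 3 and 4 overlapped, and Cdh5 did not pass either test (log2 fold change -0.36, edgeR adjusted p = 0.133, without mutant 2; 1.70, adjusted p = 0.220, with it).

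Plvap, which forms the diaphragms of fenestrated capillaries, stood at 165, 150.3, 189.5 and 153 CPM in the controls, 67.1, 86.2 and 85.8 CPM in mutants 1, 3 and 4 and 218 CPM in mutant 2. Emcn, a sialomucin of capillaries and veins, showed 15.3, 13.6, 18.8 and 13.9 CPM in the controls, 6.11, 7.42 and 6.81 CPM in mutants 1, 3 and 4 and 31.9 CPM in mutant 2. For both genes, mutants 1, 3 and 4 lay under every control and mutant 2 above. The log2 fold changes without mutant 2 were -1.04 (SE 0.13, edgeR adjusted p = 0.000161) for Plvap and -1.18 (SE 0.17, adjusted p = 0.000381) for Emcn, and with all 8 libraries -0.52 (adjusted p = 0.319) and -0.24 (adjusted p = 0.781). Of the 15 genes lower without mutant 2, these were the 2 that also passed with column totals, at -0.35 (edgeR adjusted p = 0.0366) and -0.49 (adjusted p = 0.0225).

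Esam, another junction adhesion molecule, stood at 30.2, 29.98, 32.0 and 29.9 CPM in the controls, 15.3, 19.2 and 18.8 CPM in mutants 1, 3 and 4 and 75.8 CPM in mutant 2. Egfl7, a secreted factor of the vessel wall, stood at 37.7, 31.4, 26.2 and 23.5 CPM in the controls, 14.8, 17.2 and 13.3 CPM in mutants 1, 3 and 4 and 75.8 CPM in mutant 2. Ptprb, the phosphatase that acts on Tek, stood at 28.4, 25.4, 37.3 and 38.6 CPM in the controls, 23.5, 22.6 and 23.7 CPM in mutants 1, 3 and 4 and 71.1 CPM in mutant 2. All 3 genes lay below every control in mutants 1, 3 and 4 and above every control in mutant 2. Their log2 fold changes without mutant 2 were -0.78, -0.98 and -0.48 (edgeR adjusted p = 0.000543, 0.00133 and 0.0330), and with all 8 libraries 0.08, 0.03 and 0.12. With column totals, Pecam1 and Ptprb changed sign to 0.10 and 0.21 without mutant 2, and neither they nor Esam (-0.10) and Egfl7 (-0.30) passed. Ptprb did not pass when control 3, control 4, mutant 1, mutant 3 or mutant 4 was also left out (edgeR adjusted p up to 0.0852). Egfl7 shares 64 exon bases with Agpat2 on the other strand, Eng 61 with Fpgs, Nos3 294 with Atg9b, Prox1 133 with Prox1os and Selp 438 with Gm16548, and no source used here states whether the counting used strand, so reads there cannot be told apart.

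The other 7 core genes did not pass either test. Eng, a co-receptor for TGF-beta family ligands, had a log2 fold change of -0.32 without mutant 2 (edgeR adjusted p = 0.111), Icam2 -0.47 (adjusted p = 0.174), Robo4, a guidance receptor, -0.58 (adjusted p = 0.150), and Nos3, the endothelial nitric oxide synthase, -0.43 (adjusted p = 0.340). Vwf, the clotting factor stored in endothelium, lay at 19.6 to 25.1 CPM in the controls, 17.5 to 26.1 CPM in mutants 1, 3 and 4 and 181 CPM in mutant 2. Cd93, a lectin-like receptor, lay at 9.55 to 15.3 CPM in the controls, 14.6 to 22.4 CPM in mutants 1, 3 and 4 and 192 CPM in mutant 2. Clec14a lay at 7.79 to 13.0, 9.31 to 10.9 and 36.0 CPM in the same order of groups. Without mutant 2, Vwf, Cd93 and Clec14a had log2 fold changes of -0.04, 0.49 and -0.01 (edgeR adjusted p = 0.859, 0.0771 and 0.985), so their point estimates did not share the low position of Pecam1 and Plvap. With column totals Eng, Vwf, Cd93 and Clec14a passed as higher without mutant 2, beside 64.1% of all genes. Their log2 fold changes were 0.38, 0.64, 1.18 and 0.67 (edgeR adjusted p = 0.0315, 0.00495, 0.000151 and 0.0143).

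All 3 VEGF receptor genes fell without mutant 2. Kdr, the main signalling receptor for VEGF-A in blood endothelium, stood at 38.3, 42.3, 42.6 and 44.6 CPM in the controls, 31.7, 28.9 and 23.2 CPM in mutants 1, 3 and 4 and 81.2 CPM in mutant 2. Flt1, which binds VEGF-A with high affinity and buffers it, stood at 42.0, 41.4, 57.4 and 52.2 CPM in the controls, 27.9, 32.1 and 41.6 CPM in mutants 1, 3 and 4 and 79.8 CPM in mutant 2. Flt4, the receptor for VEGF-C and VEGF-D, stood at 6.22, 6.52, 11.1 and 9.81 CPM in the controls, 4.14, 3.62 and 5.87 CPM in mutants 1, 3 and 4 and 29.9 CPM in mutant 2. Groups without mutant 2 did not overlap for Kdr and Flt4, while for Flt1 mutant 4 lay just above control 2. The log2 fold changes without mutant 2 were -0.58 (SE 0.13), -0.51 (SE 0.16) and -0.89 (SE 0.27), with edgeR adjusted p = 0.00472, 0.0326 and 0.0250, and with all 8 libraries -0.02, -0.09 and 0.37. With column totals and without mutant 2 none passed, and Kdr and Flt1 changed sign (0.10 and 0.18). Flt1 and Flt4 each lost the call when control 3, control 4, mutant 1 or mutant 3 was also left out (edgeR adjusted p up to 0.127 and 0.0797).

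Tie1 and Tek, the TIE receptor kinases, fell without mutant 2. Tie1 (chromosome 4, 118471191 to 118490061) stood at 34.4, 29.6, 34.98 and 34.2 CPM in the controls, 14.7, 17.0 and 17.7 CPM in mutants 1, 3 and 4 and 114 CPM in mutant 2. Tek, the angiopoietin receptor, stood at 9.17, 11.9, 11.7 and 13.0 CPM in the controls, 6.98, 7.03 and 7.33 CPM in mutants 1, 3 and 4 and 33.4 CPM in mutant 2. For both, mutants 1, 3 and 4 lay under every control with little spread. The log2 fold changes without mutant 2 were -1.01 (SE 0.12, edgeR adjusted p = 0.000117) and -0.69 (SE 0.17, adjusted p = 0.00976), and with all 8 libraries 0.30 (adjusted p = 0.778) and 0.26 (adjusted p = 0.764). Angpt2, the context-dependent antagonist ligand of Tek, lay at 1.44 to 2.83 CPM in the controls, 1.64 to 3.00 CPM in mutants 1, 3 and 4 and 46.8 CPM in mutant 2, and did not pass (-0.01 without mutant 2, edgeR adjusted p = 0.992). With column totals and without mutant 2 Tie1 (-0.33, edgeR adjusted p = 0.0580) and Tek (-0.0038, adjusted p = 0.987) did not pass.

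Of the transcription factor genes, Erg fell without mutant 2. Erg, an ETS factor that maintains endothelial identity, stood at 5.71, 6.32, 7.21 and 7.48 CPM in the controls, 2.47, 2.59 and 4.41 CPM in mutants 1, 3 and 4 and 30.8 CPM in mutant 2, with no overlap between the controls and the first 3. The log2 fold change was -1.08 (SE 0.26, edgeR adjusted p = 0.00771) without mutant 2, -0.39 with column totals (adjusted p = 0.203), and 0.59 (adjusted p = 0.632) with all 8 libraries. Sox18, the SOX factor with the highest level per length, stood at 10.0, 13.3, 12.4 and 8.85 CPM in the controls, 7.85, 11.3 and 7.46 CPM in mutants 1, 3 and 4 and 46.9 CPM in mutant 2. Its groups overlapped without mutant 2, and it did not pass (-0.33, edgeR adjusted p = 0.247). Sox17, a factor of arterial endothelium, gave -0.78 (edgeR adjusted p = 0.0639), and Sox7 gave 0.46 (adjusted p = 0.391). With column totals and without mutant 2, Sox7 passed as higher (1.16, edgeR adjusted p = 0.0143).

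The lymphatic genes split. Prox1, the master regulator of lymphatic identity (chromosome 1, 190118035 to 190170714), stood at 2.83, 2.83, 3.51 and 3.65 CPM in the controls, 2.04, 1.21 and 1.97 CPM in mutants 1, 3 and 4 and 1.23 CPM in mutant 2. Reln, reelin, a secreted glycoprotein of lymphatic endothelium and neurons, stood at 2.76, 3.82, 2.62 and 3.23 CPM in the controls, 0.301, 1.25 and 1.63 CPM in mutants 1, 3 and 4 and 0.736 CPM in mutant 2. All 4 mutants lay below all 4 controls for both genes, a position held by 16.1% of all genes tested, and mutant 2 was not high. The log2 fold changes were -0.99 (SE 0.28, edgeR adjusted p = 0.0415) for Prox1 and -1.67 (SE 0.48, adjusted p = 0.0422) for Reln with all 8 libraries, and -0.88 (adjusted p = 0.0380) and -1.57 (adjusted p = 0.0248) without mutant 2.

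These are small counts, 28 to 61 reads per library for Prox1 and 9 to 58 for Reln. With all 8 libraries Prox1 lost the call in each fit that dropped a control, mutant 3 or mutant 4 (edgeR adjusted p up to 0.107), and Reln in each fit that dropped a control or mutant 3 (up to 0.101). Without mutant 2, Prox1 kept the call in 1 and Reln in 5 of the 7 fits that left out a further library. With column totals neither passed, at -0.29 (edgeR adjusted p = 0.395) and -0.98 (adjusted p = 0.102) with all 8 libraries. Prox1 is also known from endocrine cells and Reln from neurons. The endocrine markers (6 genes) summed to 1928 to 2835 CPM in the controls, 409 to 510 in mutants 1, 3 and 4 and 105 in mutant 2, and the enteric neuron and glia markers (6 genes) to 35.1 to 54.3, 5.11 to 7.03 and 9.57 CPM. Their part in the Prox1 and Reln values was not tested.

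Lyve1, the hyaluronan receptor of lymphatic endothelium and some macrophages, followed the blood endothelial order, with 7.97, 9.68, 12.2 and 11.7 CPM in the controls, 4.94, 4.79 and 6.86 CPM in mutants 1, 3 and 4 and 19.7 CPM in mutant 2. The first 3 lay below every control (log2 fold change -0.91, SE 0.22, edgeR adjusted p = 0.00758), whereas with all 8 libraries the value was -0.20 (adjusted p = 0.789), and with column totals -0.22 without mutant 2 (adjusted p = 0.388). Ccl21a, the chemokine that guides dendritic cells into lymphatics, had no read under either identifier in any library, and Ccl21b and Ccl21c, its near-identical copies, also had none. A floor of 3 counts per library would be 0.1002 to 0.198 CPM. Reads shared between such copies can be lost in counting, so a count of 0 does not show absence.

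Pdpn, podoplanin, a surface glycoprotein of lymphatic endothelium that fibroblasts and mesothelial cells also carry, rose. It stood at 13.1, 9.62, 10.3 and 9.99 CPM in the controls, 18.9, 20.4 and 32.2 CPM in mutants 1, 3 and 4 and 102 CPM in mutant 2. All 4 mutants lay above all 4 controls, a position held by 14.2% of all genes tested. The log2 fold change was 2.01 (SE 0.55, edgeR adjusted p = 0.0355) with all 8 libraries and 1.15 (SE 0.20, adjusted p = 0.00114) without mutant 2, and with column totals 2.73 (adjusted p = 0.00443) and 1.84 (adjusted p = 1.2e-05). With all 8 libraries the call was lost when any control or mutant 4 was left out (edgeR adjusted p up to 0.0952), and without mutant 2 it held in each of the 7 fits that left out a further library. Beside it, the fibroblast marker Pdgfra lay at 26.9 to 37.9 CPM in the controls, 63.0 to 90.6 CPM in mutants 1, 3 and 4 and 234 CPM in mutant 2, and the mesothelial marker Msln at 8.04 to 13.1, 21.8 to 40.5 and 50.8 CPM. These were the members of their lists that rose. Pdgfra was the 1 of 7 fibroblast genes that rose in each fit, 6 did not pass with all 8 libraries, and without mutant 2 Fbln1 fell (-1.13, edgeR adjusted p = 0.0105) and 5 did not pass. Msln was the 1 of 4 tested mesothelial genes that rose, Gpm6a fell in both fits, and Upk3b and Lrrn4 fell without mutant 2. The 5 mesothelial genes summed to 47.8 to 59.3 CPM in controls, 23.9 to 44.2 in mutants 1, 3 and 4 and 75.4 in mutant 2. Their part in the Pdpn value was not tested.

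Among the leukocyte adhesion genes, Vcam1, the ligand of leukocyte integrins, stood at 13.8, 10.4, 15.1 and 12.2 CPM in the controls, 15.03, 11.99 and 25.2 CPM in mutants 1, 3 and 4 and 97.9 CPM in mutant 2. Selp, P-selectin of endothelial and platelet granules, lay at 1.08 to 1.45 CPM in the controls, at 1.24 and 1.12 CPM in mutants 1 and 3, at 6.60 CPM in mutant 4 and at 15.7 CPM in mutant 2. Mutants 1 and 3 were within the control range for both genes, and mutants 2 and 4 above it. Neither passed in edgeR with all 8 libraries (1.54, adjusted p = 0.123, for Vcam1; 2.28, adjusted p = 0.0884, for Selp) or without mutant 2 (0.44 and 1.23, adjusted p = 0.188 and 0.141), although both had an unadjusted p under 0.05 with all 8 libraries and DESeq2 called both. When mutant 3 was left out, Selp passed in edgeR, and Vcam1, Selp and Cd93 passed when mutants 2 and 3 were both left out. With column totals and without mutant 2, Vcam1 (1.13, edgeR adjusted p = 0.000879) and Selp (1.93, adjusted p = 0.0146) passed as higher. Sele, E-selectin, was too low for the edgeR filter, with 2 reads in control 1, none in the other controls or in mutant 1, and 30, 2 and 10 reads in mutants 2, 3 and 4. DESeq2 tested it and gave an unadjusted p under 0.05 with all 8 libraries, but did not call it, with or without mutant 2.

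Apln, apelin, a peptide of sprouting tip cells, rose and had the largest fold change of the 33 genes with all 8 libraries. Apln (chromosome X, 48025146 to 48034853) stood at 1.26, 1.38, 1.02 and 1.496 CPM in the controls, 3.54, 2.76 and 3.94 CPM in mutants 1, 3 and 4 and 61.5 CPM in mutant 2. All 4 mutants lay above all 4 controls, and mutant 2 stood at 18.01 times the mean of the other mutants. The counts were small, 16 to 25 reads per control and 106, 64 and 92 reads in mutants 1, 3 and 4. The log2 fold change was 3.79 (SE 1.13, edgeR adjusted p = 0.0483) with all 8 libraries and 1.40 (SE 0.28, adjusted p = 0.00305) without mutant 2, and with column totals 4.51 and 2.08 (adjusted p = 0.0107 and 7.9e-05). With all 8 libraries the call was lost when any control or mutant 4 was left out (edgeR adjusted p up to 0.123), and without mutant 2 it held in each of the 7 fits that left out a further library. Its receptor gene Aplnr lay at 4.34 to 7.41 CPM in the controls, 5.35 to 10.7 CPM in mutants 1, 3 and 4 and 84.0 CPM in mutant 2, and did not pass (0.31 without mutant 2, edgeR adjusted p = 0.408). With column totals and without mutant 2, Aplnr passed as higher (0.98, edgeR adjusted p = 0.00718). Esm1, a proteoglycan of tip cells, stood at 10.99, 12.1, 11.7 and 12.9 CPM in the controls, 14.5, 9.61 and 6.26 CPM in mutants 1, 3 and 4 and 51.0 CPM in mutant 2, and overlapped without mutant 2 (-0.23, edgeR adjusted p = 0.5002).

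**Figure D3:**
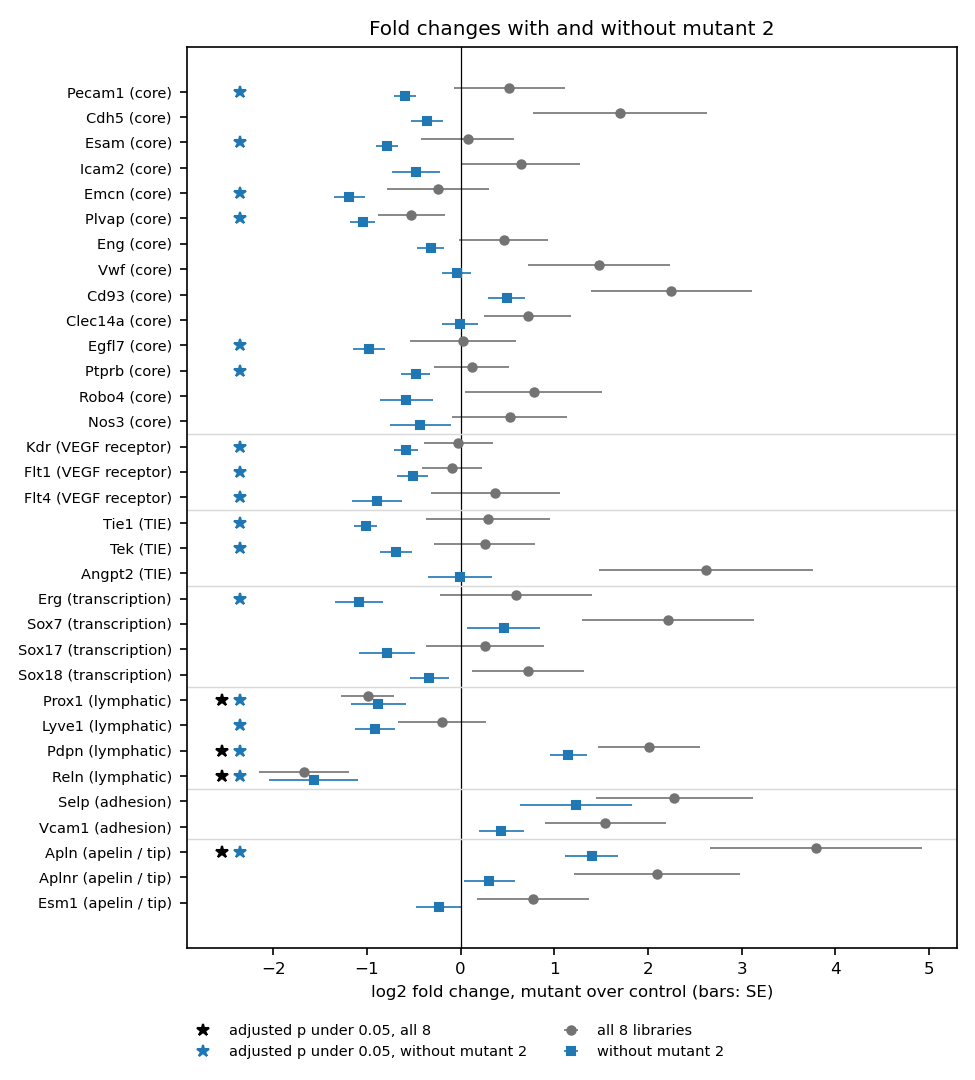
Log2 fold change, mutant over control, of the 33 tested genes with all 8 libraries (grey) and without mutant 2 (blue), with bars for 1 SE and stars for an edgeR adjusted p under 0.05. Most blue squares lie left of 0 with short bars and most grey points right of it with long bars, whereas Pdpn and Apln lie right and Prox1 and Reln left in both. Values are TMM-scaled. With column totals without mutant 2, Pecam1, Kdr, Flt1, Vwf, Eng, Clec14a, Ptprb, Cdh5, Icam2, Robo4, Nos3, Sox18, Angpt2 and Esm1 turn from negative to positive. The median is then 0.21.

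As a description, each gene was set against the mean log2 count of 6 reference endothelial genes in the same library: Pecam1, Cdh5, Esam, Icam2, Tie1 and Eng. Some of the genes, such as Pdpn, Selp and Reln, are also made by other cells, so the make-up of the endothelium cannot be read from it. Such a ratio does not depend on library size. Of the 27 other tested genes, 6 lay higher in all 4 mutants than in all 4 controls and 3 lower, beside 5.33% and 7.29% of all genes tested, and 18 overlapped. Those shares are not a like background. The reference genes stood at 2.48 (Esam) to 10.7 (Cdh5) times the control mean in mutant 2, which lowers the ratio of most other genes there. The 6 were Apln, Pdpn, Selp, Cd93, Vcam1 and Vwf, whose mean log2 ratio exceeded that of controls by 2.36, 1.59, 1.38, 1.29, 0.95 and 0.66. For Apln the ratio was -4.38, -3.98, -4.80 and -4.09 in controls and -2.22, -0.78, -2.61 and -2.21 in mutants 1 to 4. For Cd93 it was -1.18, -1.22, -0.94 and -0.79 in controls and 0.07, 0.86, -0.22 and 0.29 in mutants. Mutant 2 was the highest of the mutants for both, yet the others also lay above every control.

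The 3 lower genes were Emcn, Plvap and Reln, by 0.68, 0.75 and 1.95 on the log2 scale. Plvap had ratios of 2.63, 2.75, 2.69 and 2.55 in controls and 2.02, 1.05, 2.35 and 2.22 in mutants 1 to 4. Mutant 2 thus had the lowest ratio of Plvap to the reference genes although its Plvap CPM was the highest of all libraries. Selp and Reln separated narrowly: the nearest mutant and control lay at -3.89 and -3.92 for Selp and at -3.48 and -3.47 for Reln. For Prox1, mutants 1 and 4 lay within the control range, mutant 3 below it, and mutant 2 lower still, 3.39 below the control mean. The reference genes were not level among themselves, since Cdh5 in mutant 2 lay 1.42 above its control mean ratio and Tie1 lay lower in all 4 mutants (by 0.38 on average), so these ratios were left without a test.

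**Figure D4:**
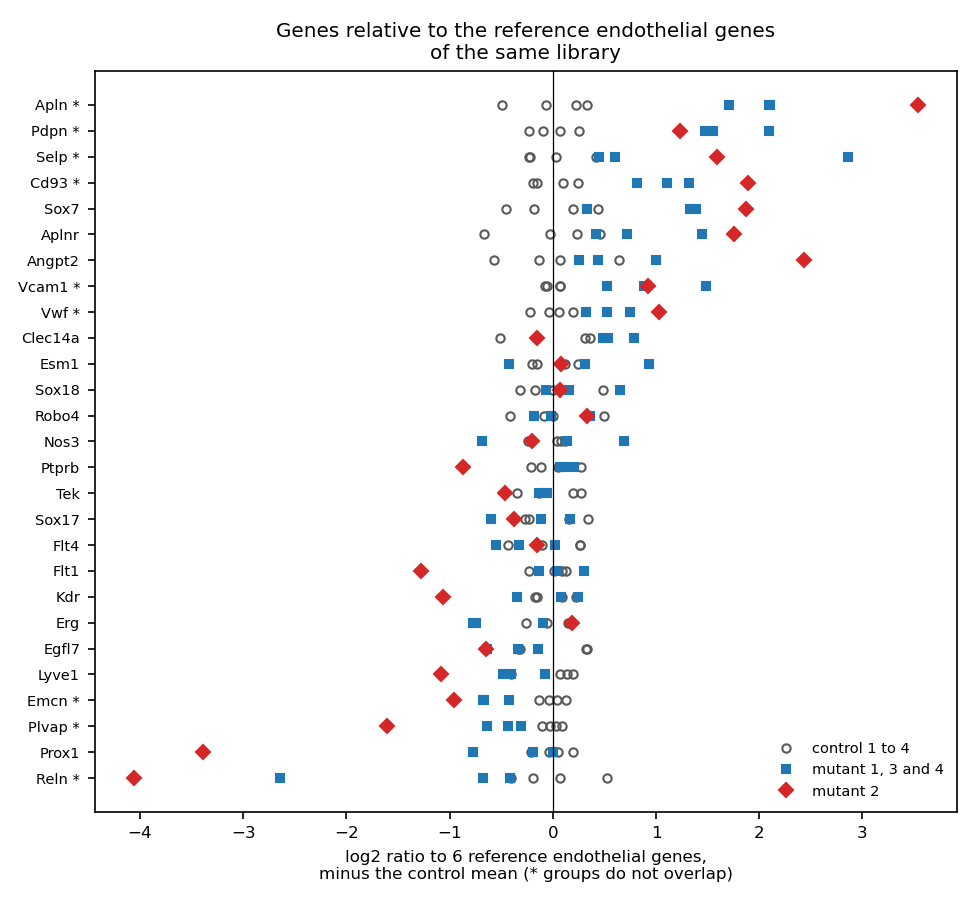
Log2 ratio of each gene to the mean of 6 reference endothelial genes in the same library, minus the control mean, with 1 point per library and a star where the 4 mutants and 4 controls do not overlap. Apln, Pdpn, Selp, Cd93, Vcam1 and Vwf lie right of the controls in every mutant, and Emcn, Plvap and Reln left. The ratio is the same under any library scaling.

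Levels between genes were compared in the deposited FPKM, which are per length. The FPKM followed the TMM-scaled CPM, so differences between groups in FPKM carry that scaling. Plvap was the highest of the 35 genes in controls at 82.1 ± 9.32 FPKM (SD, n = 4), far above Eng (12.1 ± 1.88), Esam (10.6 ± 0.391) and Pecam1 (9.81 ± 1.22), which lay within about their spread of each other. Plvap was also the highest in mutants 1, 3 and 4 (39.8 ± 5.43, n = 3) and in mutant 2 (109). The order below it changed: Pdpn ranked 9 in controls (5.86 ± 0.868 FPKM), 2 in mutants 1, 3 and 4 (13.0 ± 3.95) and 3 in mutant 2 (55.7), and Cdh5 ranked 8 in controls (6.05 ± 1.25) and 2 in mutant 2 (64.6). Apln ranked 30 in controls (0.406 ± 0.0627 FPKM) and 13 in mutant 2 (19.4). Reln (0.130 ± 0.0221), Sele (0.0107 ± 0.0214) and Ccl21a (0) were lowest in controls.

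**Figure D5:**
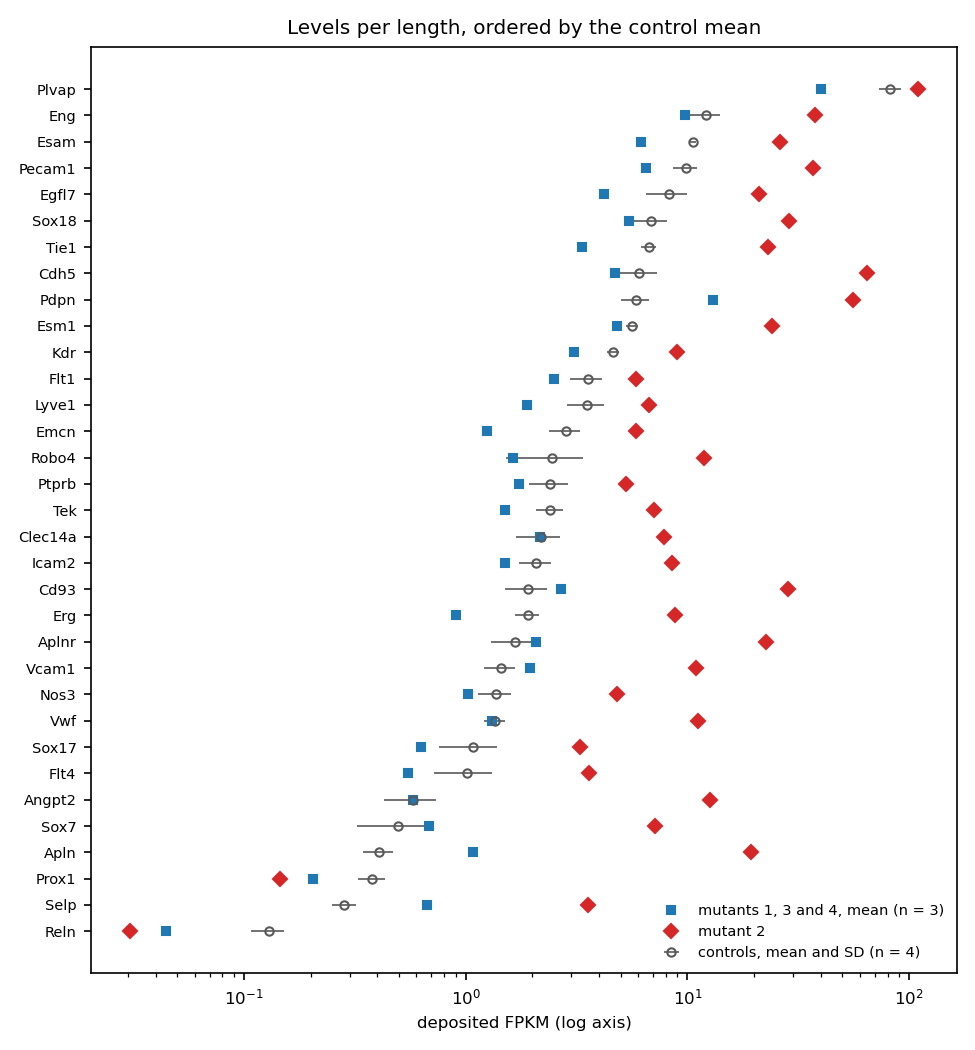
Deposited FPKM of the tested endothelial genes on a log axis, ordered by the control mean, with the control SD as a bar, the mean of mutants 1, 3 and 4 as squares and mutant 2 as diamonds. Plvap leads in all 3 sets at 82.1, 39.8 and 109 FPKM, and Prox1 and Reln are the genes whose diamond lies left of the control mean.

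Related genes outside the 35 were read from lists of the same pathways, which were chosen with earlier results of these data known. Their counts stand beside 9.39% of all genes higher and 10.8% lower with all 8 libraries, and 15.2% higher and 18.3% lower without mutant 2. Of 7 VEGF ligand and co-receptor genes, Vegfb, a ligand of Flt1, fell with all 8 libraries, from 90.9 to 115 CPM in controls to 22.1, 13.8, 39.5 and 27.2 CPM in mutants 1 to 4 (log2 fold change -2.01, edgeR adjusted p = 0.00381), and 3 of 7 fell without mutant 2. Of 25 other endothelial genes, Bmx, a kinase of arterial endothelium, rose (1.498, edgeR adjusted p = 0.0141) and Ly6c1 fell (-1.41, adjusted p = 0.00176) with all 8 libraries. Ly6c1, a surface antigen of endothelium and monocytes, lay at 46.2 to 58.4 CPM in controls and at 14.3, 23.0, 21.3 and 19.5 CPM in mutants 1 to 4, so mutant 2 was not high for it. Without mutant 2, 10 of the 25 fell and 2 rose, beside 18.3% and 15.2% of all genes. Ly6c1 has near-identical family members, so its reads may be split among them.

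Of 10 arterial and Notch pathway genes, 3 rose and none fell with all 8 libraries, beside 9.39% and 10.8% of all genes: Efnb2, an arterial ephrin ligand (0.95, edgeR adjusted p = 0.0193), Notch1 (1.01, adjusted p = 0.0285) and Gja5, an arterial gap junction gene (2.99, adjusted p = 0.0416). Without mutant 2, 4 rose and 6 did not pass, beside 15.2% higher over all genes, the fourth being Dll4, the Notch ligand of tip and arterial cells, named after its value was seen (0.88, edgeR adjusted p = 0.0133). Gja5 stood at 1.57, 0.725, 0.638 and 1.14 CPM in controls and 3.14, 23.9, 2.98 and 2.61 CPM in mutants 1 to 4, so every mutant lay above every control. Set against the 6 reference genes, Gja5 and Dll4 lay higher in all 4 mutants than in all 4 controls, by 2.26 and 1.38 on the log2 scale. The other 8 overlapped, among them Notch1 and Efnb2, whose ratios in mutant 2 lay 0.59 and 0.60 below the control mean. Notch1 and Efnb2 are also made by epithelial cells. With all 8 libraries Efnb2 lost the call without control 1, control 3, control 4 or mutant 4, Notch1 without control 1, control 2, control 3 or mutant 3, and Gja5 without any 1 of the controls (edgeR adjusted p up to 0.0635, 0.0807 and 0.113).

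Of 7 further lymphatic genes tested, Mmrn1, a multimerin of lymphatic endothelium, fell with all 8 libraries (-1.90, edgeR adjusted p = 0.0466). It stood at 4.83, 4.02, 6.64 and 4.73 CPM in controls and 0.234, 2.21, 1.47 and 1.4999 CPM in mutants 1 to 4, so, as for Prox1 and Reln, every mutant lay below every control. Without mutant 2, 5 of the 7 fell, beside 18.3% of all genes. Mmrn1 did not pass with column totals (-1.18, edgeR adjusted p = 0.0860), nor when any 1 control, mutant 3 or mutant 4 was dropped (up to 0.118). Of 8 leukocyte adhesion genes, Icam1 (2.37, edgeR adjusted p = 0.0141), Itga4 (2.21, adjusted p = 0.0183) and Itgal (2.31, adjusted p = 0.0433) rose with all 8 libraries, and 4 rose without mutant 2, beside 9.39% and 15.2% of all genes. Icam1, a ligand of leukocyte integrins on endothelium and epithelium, stood at 6.53, 6.46, 5.43 and 4.31 CPM in controls and 13.1, 60.4, 14.7 and 29.4 CPM in mutants 1 to 4. Itga4 and Itgal are integrin genes of leukocytes, and they lost the call without control 1 or control 3 (Itga4, edgeR adjusted p up to 0.0609) and without any 1 control, mutant 1 or mutant 4 (Itgal, up to 0.119). Of 5 further tip cell genes none passed with all 8 libraries (edgeR; 2 at an unadjusted p under 0.05; by DESeq2 none of the 2 with an adjusted p, by limma-voom 2), and Cxcr4 came nearest at 2.68 (adjusted p = 0.0544).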

How the data were processed

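The authors deposited raw read counts by Ensembl gene and, in the same table layout, FPKM (counts scaled by gene length and a library size). The FPKM followed the TMM-scaled CPM per length and not the column totals. For example, Pecam1 in mutant 2, with a length of 6228 bases, had 231 CPM and 36.9 FPKM. The submitters' processing notes list CASAVA, fastp, STAR 2.5 and featureCounts and assign no step to any. The genome build and strand setting of the counting are not stated there. All 35 genes had the start and end of GENCODE M21 (GRCm38), as did 53499 of 54409 shared genes. The header SCI was taken as SC1, a control. The 4 libraries per group are biological replicates per the series' design text, and no pair in a group matched within sampling noise (chi-square per degree of freedom at least 15.4).

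Counts were tested with edgeR 4.0.16 in R 4.3.3 (filterByExpr, TMM factors, robust quasi-likelihood test, Benjamini-Hochberg over all genes, threshold 0.05), mutant over control, with all 8 libraries and without mutant 2. Adjusted p-values are edgeR's except where DESeq2 or limma is named. The SE is the unshrunk log2 coefficient over the square root of F. CPM are counts over TMM library sizes, and a floor of 3 counts covers counting error only. The test was checked on simulated counts.

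The genes, their roles, the related lists and the marker lists were chosen with earlier results of these data known. All 35 genes are accounted for. Values per library are printed for Pecam1, Cdh5 and Kdr, for genes past either test and for the highest gene of each role by control FPKM. From each related list, at most 4 genes past the test with all 8 libraries are named, or else the 1 with the smallest p. The core ratio used log2(count + 0.5). Sequences are from RefSeq promoters (GRCm38.p6, 250 bases before to 50 after the start).

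The alternatives were other tests (DESeq2 1.42.0, and limma 3.58.1 as voom with sample weights), other scalings (RLE factors or column totals), other filters (none, or a CPM of 1 or more in 4 libraries), a block for the replicate number, fits with 1 library left out, and a fit without control 3 and mutant 3, the pair with squamous transcripts. FPKM were tested by limma-trend as log2(FPKM + 1), filtered on a mean FPKM of 0.5 or unfiltered, and as log2(FPKM + 0.1). Alternatives for the fit without mutant 2 were chosen after seeing the data.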

Additional observations from a re-analysis of the deposited data

Results flagged for a closer look

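In each group of 4 libraries, the gap between the highest or lowest library and its nearest neighbour was divided by the range of the group, and values past the 95% limit of Dixon's test are given here. Chance passes about 1 in 20 groups, whereas 30 of the 68 groups checked (34 genes with reads, 2 groups each) passed, 27 of them through mutant 2. Since the same library stands behind those 27, they are not separate observations.

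Mutant 2 was the high library in each of these 27 genes. In the core group the gap took 0.994 of the range of the mutants for Pecam1, 0.981 for Cdh5, 0.976 for Ptprb, 0.956 for Cd93, 0.95 for Emcn, 0.948 for Vwf, 0.941 for Clec14a, 0.937 for Egfl7, 0.934 for Esam, 0.925 for Icam2, 0.924 for Robo4, 0.904 for Eng and 0.874 for Plvap. Among receptors and ligands it took 0.987 for Tek, 0.97 for Tie1 and 0.97 for Angpt2, and 0.915 for Flt4 and 0.853 for Kdr. For the transcription factors it took 0.931 for both Erg and Sox7, 0.903 for Sox18 and 0.886 for Sox17. For the others it took 0.98 for Apln, 0.932 for Aplnr, 0.861 for Lyve1, 0.846 for Vcam1 and 0.839 for Pdpn.

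In controls, 3 genes had a library apart. Control 2 was low for Tie1 (0.86 of the range, 29.6 CPM against 34.2 CPM or more in the others), control 3 was high for Esam (0.865, 32.0 CPM), and control 1 was the one control with reads of Sele (a gap of 1, with 2 reads).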

How the results depend on the processing

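With all 8 libraries, 3208 genes passed, and 4930 did by DESeq2, 5691 by limma-voom and 10136 with column totals, against 1410 without control 3 and mutant 3. Of the endothelial genes, 2 passed as higher and 2 as lower, and the alternatives moved this to 4 higher by DESeq2, 11 higher and 0 lower with column totals, 11 lower by limma-voom, and 0 in either direction with no low-count filter, without control 3 and mutant 3, and in each of the fits on FPKM (log2(FPKM + 0.1), log2(FPKM + 1) with and without filter). Leaving out 1 library gave 1717 to 5400 genes, 0 to 3 endothelial genes higher and 0 to 15 lower, with the highest counts of genes and of lower calls without mutant 2. The median log2 fold change of the 33 genes was 0.52 and ran from -0.48 to 0.83 with 1 library left out, with -0.41 by limma-voom and 1.25 with column totals.

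Leaving out mutant 2 turned 8 genes from positive to negative with an edgeR adjusted p under 0.05. Over the fits that left out 1 library, Pecam1 ran from -0.59 to 0.76 on the log2 scale, Flt4 from -0.89 to 0.66, Tie1 from -1.01 to 0.58, Tek from -0.69 to 0.47, Esam from -0.78 to 0.31, Egfl7 from -0.98 to 0.27, Erg from -1.08 to 0.91 and Ptprb from -0.48 to 0.28, the lowest being without mutant 2. Cdh5, Icam2, Eng, Vwf, Clec14a, Robo4, Nos3, Angpt2, Sox17, Sox18 and Esm1 also turned negative without mutant 2, and none of them passed in either fit. By limma-voom with 8 libraries, Tie1 (-0.92), Tek (-0.63), Esam (-0.72), Egfl7 (-0.92) and Erg (-0.98) also turned negative and passed (limma adjusted p under 0.05). The causes were not tested.

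Without mutant 2, column totals gave 11471 genes in place of 5400, 10 endothelial genes higher in place of 2, 2 lower in place of 15 and a median of 0.21 in place of -0.48. Among genes that passed under TMM or column totals, Pecam1 (0.10), Kdr (0.10), Flt1 (0.18), Vwf (0.64), Eng (0.38), Clec14a (0.67) and Ptprb (0.21) turned positive. Cdh5 (0.34), Icam2 (0.21), Robo4 (0.13), Nos3 (0.27), Sox18 (0.36), Angpt2 (0.68) and Esm1 (0.45) also turned positive, and passed under neither scaling. Leaving out a further library gave 2 to 5 higher (5 without mutant 3), 10 to 17 lower (10 without control 4) and a median of -0.58 to -0.41. Of the 15 lower genes, 10 (Pecam1, Kdr, Tie1, Tek, Emcn, Plvap, Lyve1, Esam, Egfl7 and Erg) stayed lower in all 10 fits without mutant 2 other than column totals.

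Same-numbered libraries did not deviate together (r of 0.05, -0.06, 0.07 and 0.00072 for numbers 1 to 4, against a minimum of 0.1), so the main fit used no pairs. Libraries of unlike number ran from -0.186 to 0.107. This check cannot exclude a pairing of the mice, and control 3 and mutant 3 both held squamous transcripts (marker sums of 130 and 450 CPM). With the replicate block, 1824 genes passed, with 0 endothelial genes higher and 0 lower: Prox1 had -1.02 (edgeR adjusted p = 0.0950), Pdpn 1.62 (0.102), Reln -1.85 (0.0703) and Apln 2.34 (0.131). Low counts limit Prox1, Reln, Selp and Sele, and in controls also Apln (16 to 25 reads), Sox7 (18 to 35) and Angpt2 (23 to 43). The 4 libraries per group, with mutant 2 apart, limit all of the genes.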
